A study of Drosophila melanogaster with 6 samples.

Results

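Regions of the fly genome at which a peak of 5-methylcytosine enrichment was called in every one of 6 adult head libraries are described here. The peaks of all libraries were pooled, peaks sharing at least 1 bp were merged, and 890 of the 4538 merged regions (19.6%) held at least 1 peak from each library. They are called shared regions below. The members were chosen by the presence of peak calls, so the widths and scores by which shared regions differ from other regions are given as description, with no test. Heads of wild-type (WT) Drosophila melanogaster were profiled by MeDIP-seq, in which fragments bound by an antibody against methylated cytosine are sequenced and set against untreated input DNA of the same sample. Lead exposure (800um in the labels) and control treatment (0um) were represented by 3 libraries each, all of them marked F3. The question of the series was whether exposure to lead alters methylation of the genome. The labels give neither the age or sex of the flies nor how many heads went into a library, and they do not state whether replicates were separate cultures, so p-values measure the spread between these libraries, which may be technical.

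Cytosine methylation is abundant in vertebrate genomes, where dedicated enzymes write it, copy it after replication and oxidize it. The fly genome carries very little of it and lacks the usual DNA methyltransferases, although it keeps a homolog of the oxidizing enzymes, Tet. Antibody enrichment can also respond to features other than methylation, such as simple repeats, so a peak does not by itself show methylated cytosine. Sequence composition was not analysed here. Read numbers are unknown for every library, so a missing peak does not show a missing mark.

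The 6 lists differed in length, yet each placed nearly the same number of peaks in the shared regions. Lead replicates 1, 2 and 3 had 924, 924 and 925 such peaks, and control replicates 1, 2 and 3 had 931, 937 and 924. The complete lists held 3522, 1379 and 2536 peaks in the lead libraries and 1746, 2414 and 2157 in the control libraries. Shared regions therefore took 26.2% (95% Wilson interval 24.8 to 27.7), 67.0% (64.5 to 69.4) and 36.5% (34.6 to 38.4) of the peaks of lead replicates 1, 2 and 3. In control replicates 1, 2 and 3 they took 53.3% (51.0 to 55.7), 38.8% (36.9 to 40.8) and 42.8% (40.8 to 44.9). The intervals cover counting error only. Both the highest and the lowest share belonged to lead libraries, the shortest list giving the highest share and the longest list the lowest.

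The number of regions fell as the number of libraries grew, apart from the last steps. A peak was called in 1, 2, 3, 4 and 5 libraries at 1611, 744, 505, 388 and 400 regions, and in all 6 at 890. The 400 regions that lacked a single library missed lead replicate 2, the shortest list, in 215 cases. Control replicate 1, the next shortest, was missing from 87, control replicate 3 from 41, control replicate 2 from 27, lead replicate 3 from 19 and lead replicate 1 from 11.

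Peaks in shared regions stood high in their own lists. Each deposited peak carries a whole-number score by the authors, whose meaning is not stated, and it was used only to order peaks within a list. A percentile of 100 marks the highest score of a list. The median percentile of peaks in shared regions was 82.8, 63.2 and 77.9 in lead replicates 1, 2 and 3, against 40.5, 27.5 and 35.4 for their other peaks. In control replicates 1, 2 and 3 it was 69.0, 75.2 and 74.6, against 31.8, 35.7 and 32.5. Of the 100 highest-scoring peaks, 94, 95 and 92 in the lead libraries and 99, 89 and 96 in the control libraries fell in shared regions.

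Peaks in shared regions were also wider. Their median width was 396.5, 320 and 384 bp in lead replicates 1, 2 and 3, against 258, 249 and 262 bp for the other peaks of those libraries. In control replicates 1, 2 and 3 it was 342, 365 and 366 bp, against 261, 242 and 260 bp. Over all peaks together, both measures grew with the number of libraries. The median percentile over all peaks was 23.0, 30.1, 35.6, 40.7, 49.1 and 74.1 in regions of 1 to 6 libraries, and the median width 237, 245, 252, 263.5, 284 and 363 bp. Single lists did not all follow each step, as the median width in lead replicate 2 was 256, 253, 243, 247, 251 and 320 bp.

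**Figure D1:**
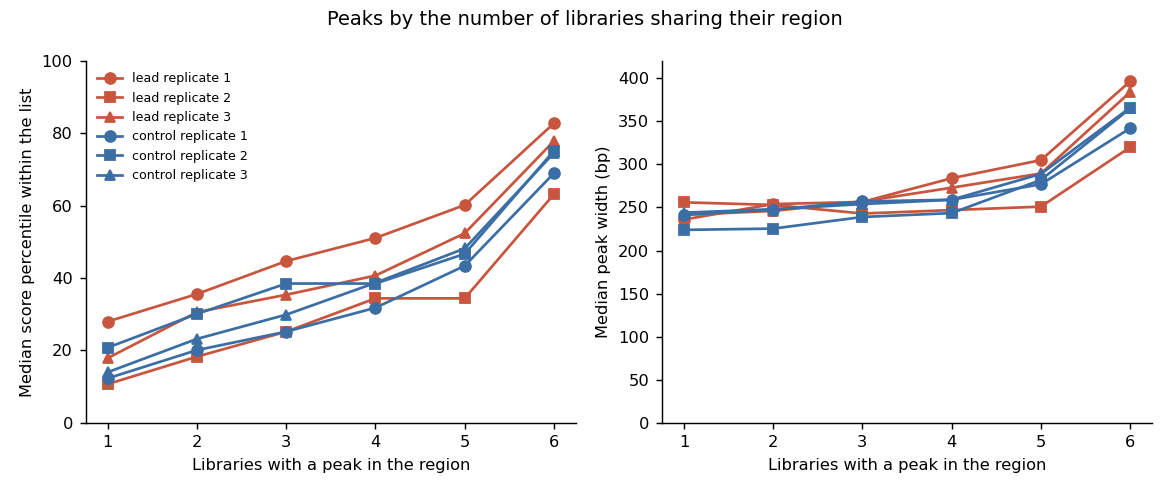
Median score percentile within the list (left) and median peak width in bp (right) of the peaks of each library, by the number of libraries with a peak in the region; circles, squares and triangles are replicates 1, 2 and 3 of lead (red) and control (blue). Every library reaches its highest values at regions of all 6 libraries, with lead replicate 2 lowest there at 63.2 and 320 bp and lead replicate 1 highest at 82.8 and 396.5 bp.

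Scores of members and non-members overlapped, although the median percentile differed most between regions of 6 and 5 libraries, at 74.1 and 49.1. At the weak end, 41 shared regions were below the 50th percentile of every list and 66 were below the 10th percentile of at least 1 list. At the other side of the rule, the regions of 5 libraries with the highest score in their weakest library lay on Y at 3560301 to 3560523 (percentile 99.3, missing control replicate 1), on 3L at 13292085 to 13292353 (97.1, missing lead replicate 2), on 2L at 20018134 to 20018404 (95, missing control replicate 1) and on Y at 581752 to 582278 in kl-2 (89.8, missing lead replicate 1). These near misses scored above most shared regions.

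Most shared regions were short and held a single peak per library. Their span had a median of 481.5 bp, with quartiles of 369 and 717.5 bp and extremes of 229 and 4866 bp. In 815 regions each library had exactly 1 peak, and the other 75 held more, up to 14 peaks in all. The stretch covered by a peak in every library had a median length of 268.5 bp and was at least 200 bp in 830 regions. In 3 regions no base was common to all 6 libraries. They were joined only through overlapping neighbours, and included regions in Myo81F on 3R at 2301661 to 2302466 and in Tlk on X at 3778737 to 3779974. Together the shared regions spanned 560.8 kb, of which 330.3 kb lay under a peak of every library.

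The 8 strongest shared regions kept the same order in all 6 lists. Ranked by score among the 890, places 1 to 8 were occupied by identical regions in every library. These were an intergenic stretch on 2R at 1825694 to 1826717, Ppr-Y on Y at 1642127 to 1642605, kl-5 on Y at 124192 to 124754, an intergenic stretch on 2L at 23512776 to 23513708, Pzl on 3R at 3169813 to 3170392, kl-2 on Y at 652917 to 653251, Y at 203417 to 203745 (11397 bp from PRY) and ORY on Y at 3562334 to 3562659. The genes kl-5 and kl-2 encode axonemal dynein heavy chains needed for sperm movement, and Pzl encodes a relative of the Piezo mechanosensitive channels. All coordinates are in dm6 and 1-based.

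The borders of these peaks were nearly the same in every library. The first region was covered over 1024, 1015 and 1024 bp in lead replicates 1, 2 and 3 and over 1014, 1016 and 1015 bp in control replicates 1, 2 and 3. The eighth, in ORY, was covered over 326, 325 and 326 bp in the lead libraries and over 325, 326 and 324 bp in the control libraries. Beyond the first 8 places the order loosened, with 37 regions among the first 50 of every list and 67 among the first 100. Above the 90th percentile of every complete list stood 105 shared regions, and above the 50th percentile of every list 465.

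At the weak end, the lowest percentile of any shared region was 0.241, in lead replicate 1, for 3L 5540019 to 5540525 in frm. That region had percentiles of 0.241, 10.7 and 13.3 in lead replicates 1, 2 and 3 and of 19.0, 44.4 and 18.6 in control replicates 1, 2 and 3. A region on X at 7624542 to 7625623 in ct, which encodes the homeodomain protein Cut, was low throughout, at 13.8, 2.1 and 9.11 in lead libraries and 10.3, 2.46 and 10.7 in control libraries. The other 6 of the 8 weakest lay in DIP-lambda, in CG42613 and CG43732, in mam (a Notch pathway coactivator), in Myo81F, in CkIIbeta (the regulatory subunit of casein kinase 2) and 210 bp from sbb.

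The widest shared region covered most of a mucin gene. It lay on 2L at 9897966 to 9902831 in Muc30E, a gene of 5.31 kb, where peaks covered 4281, 3333 and 4521 bp in lead replicates 1, 2 and 3 and 4209, 4803 and 4605 bp in control replicates 1, 2 and 3. The next by median covered length were in Pzl on 3R at 3087357 to 3090470, in DIP-lambda on 2R at 510400 to 513539, in Ten-a on X at 12169093 to 12171370, and on X at 20959322 to 20961881, 724 bp from Ser6. Ten-a encodes a teneurin, a cell surface protein of synaptic partner matching. Of all 890 regions 25 were 2 kb or longer, and 790 were shorter than 1 kb.

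Of the shared regions, 671 (75.4%, 95% Wilson interval 72.5 to 78.1) had their midpoint in a gene. A further 17 (1.91%) had it within 1 kb of one and 202 (22.7%) farther away. Genes took up 68.5% of the span of these chromosomes, and the share of 75.4% was not tested against that. Distances were measured from the edge of the region instead of its midpoint. For these 202 their median was 12178.5 bp, and a wide region could lie nearer than 1 kb, as at 724 bp from Ser6. For midpoints inside genes the nearest end was a median 6475 bp away. Of these midpoints, 127 (18.9%) lay within 1 kb of an end and 272 lay more than 10 kb from either. Genes with a shared region were long, with a median of 14749.5 bp, and these distances were not compared with those of other regions. The table of genes used here gives no strand and no exons, so starts and ends, or exons and introns, could not be told apart.

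The share in genes was also compared with that of the peaks outside shared regions. In genes lay 75 ± 0.239% of the peaks in shared regions and 74.4 ± 2.29% of the other peaks (mean ± SD over 6 libraries). The difference of 0.507 percentage points was positive in 3 of 6 libraries and did not pass an exact sign-flip permutation test over the libraries (two-sided, p = 0.656, adjusted p = 1 over 3 such tests). With peaks at or above the median score of their list the difference was 4.21 points (exact sign flip, p = 0.0625), and it was -0.0116 without lead replicate 3 and -0.139 without control replicate 2. The smallest p that 64 sign flips allow is 0.03125, and the libraries share the same regions, so they are not independent draws. By region, the share in genes was 74.0% for 5 libraries, 74.6% for 2 to 4 and 75.3% for 1.

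The X held 206 shared regions, 3R 200, 2R 196, 3L 177 and 2L 86, while Y held 13 and chromosome 4 held 12. As a share of all regions called on a chromosome, shared ones made up 33.3% on chromosome 4, 25.5% on Y, 23.1% on 2R, 20.9% on 3R, 20% on 3L and 16.6% on both X and 2L. Peaks on X were 23.1 ± 0.340% of the peaks in shared regions and 24.5 ± 5.81% of the other peaks. That difference of -1.4 points was positive in 3 of 6 libraries and did not pass the test (exact sign-flip, p = 0.688, adjusted p = 1). It rests on lead replicate 1, where X held 23.4% of peaks in shared regions and 35.3% of the others; without that library the difference was 0.696. Peaks on Y made up 1.4% of the peaks in shared regions and 1.39 ± 0.609% of the others (exact sign-flip, p = 1).

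Shared regions were densest next to the centromere on 2R and 3R, but not on the other major arms. When each arm was divided into 10 equal parts and all 5 arms were pooled, the part beside the centromere had 11.6 shared regions per Mb, against 4.15 to 6.95 per Mb in the other 9. It held 154 shared regions, 25.7% of the 599 regions called there. The arm 2R contributed 63 of them (24.9 per Mb) and 3R 40 (12.5 per Mb). On 3L the part beside the centromere had 26 (9.28 per Mb), on X 16 (6.8 per Mb) and on 2L 9 (3.83 per Mb), and the densest parts of these arms were elsewhere, with 10.7, 14.9 and 5.95 per Mb. Peaks covered a median 468.2 bp of a shared region there and 353.5 bp elsewhere on the arms. Neighbouring shared regions were a median 70.4 kb apart, but 127 neighbours lay within 5 kb of each other and 55 within 1 kb.

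**Figure D2:**
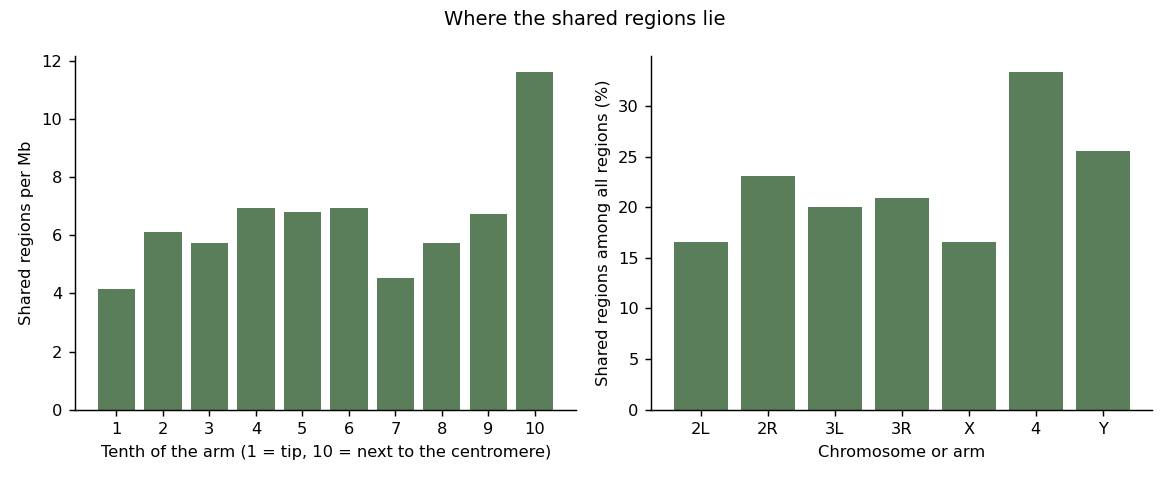
Left, shared regions per Mb in each of 10 equal parts of the 5 major arms, counted from the tip (1) to the centromere (10); right, shared regions as a percentage of all merged regions of each chromosome or arm. The part beside the centromere reaches 11.6 per Mb over the pooled arms, and chromosome 4 has the highest percentage, 33.3.

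Genes with several shared regions were mostly long genes. Of 17807 genes, 630 (3.54%) had a shared region inside them or within 1 kb, and 118 genes (0.663%) had at least 2. Exactly 1 was found for 512 genes, 2 for 72, 3 for 26 and 4 or more for 20. Of the 630, 564 were protein-coding and 53 were long noncoding RNA genes. Genes with a shared region had a median length of 14749.5 bp, those with at least 2 a median of 51605 bp, and all genes a median of 1695 bp. Where genes overlap, 1 region counts for each, as for 55 midpoints that lay in 2 or more genes.

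Gene length and the chance of holding a shared region moved together. A shared region marked 1.18% of genes under 2 kb, 9.44% of those from 10 to 20 kb, 19.0% from 20 to 50 kb, 33.6% from 50 to 100 kb and 59.1% over 100 kb. Per length the numbers were more even, between 0.573 and 1.24 shared regions per 100 kb of gene over the 7 length classes. The highest value belonged to the shortest class, where the added 1 kb on either side weighs most.

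**Figure D3:**
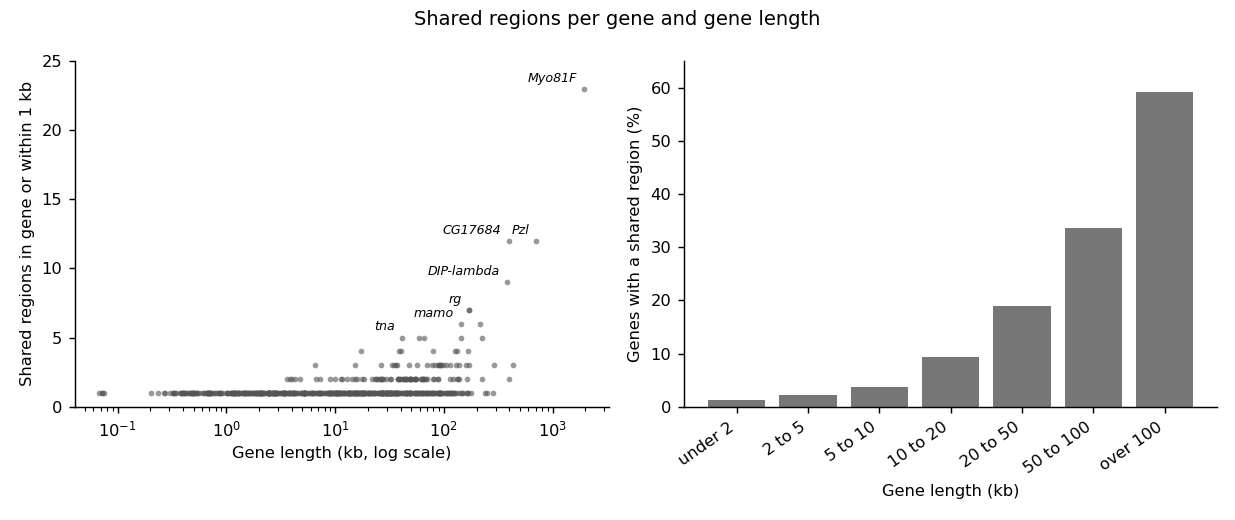
Left, number of shared regions in a gene or within 1 kb against gene length in kb (log scale) for the 630 genes with at least 1; right, percentage of genes of each length class with a shared region. Myo81F, the longest of these genes, has the most shared regions with 23, and the percentage reaches 59.1 for genes over 100 kb.

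The leading genes sit in or beside pericentric heterochromatin, the repeat-rich chromatin around centromeres. Myo81F, an unconventional myosin gene of 1965.9 kb on 3R, had 23 shared regions among the 99 regions called there in any library. CG17684 on 2R (396.0 kb) had 12 of 36, Pzl on 3R (709.4 kb) had 12 of 42, DIP-lambda on 2R (379.1 kb) had 9 of 36, and l(3)80Fg on 3L (215.7 kb) had 6 of 12. DIP-lambda encodes a neuronal immunoglobulin-domain protein of the family that binds Dpr proteins.

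Within these genes strong and weak shared regions stood side by side. In Myo81F the region at 772101 to 772800 had percentiles of 95.3, 95.1 and 96.3 in lead replicates 1, 2 and 3 and of 95.1, 95.2 and 96.0 in control replicates 1, 2 and 3. The region at 598907 to 599484 of the same gene had 6.89, 14.2 and 11 in lead and 1.49, 10.4 and 1.55 in control libraries. Each was at a similar height in all 6 lists, and lead and control values overlapped. Pzl showed the same mixture, with the region at 3033083 to 3033795 at 99.7, 99.2 and 99.6 in lead and 99.4, 99.5 and 99.6 in control libraries, and that at 3151389 to 3151883 at 56.8, 25.2 and 40.7 in lead and 8.42, 49.7 and 12.4 in control libraries.

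The other leading genes lie in the gene-rich arms. The genes rg and CG15465 occupy the same 169.1 kb of X and so share 7 regions. Rugose, the product of rg, is an A-kinase anchor protein required for learning. Its region at 5177162 to 5177615 had percentiles of 97.6, 89.8 and 92.5 in lead and 93.3, 91.3 and 93.9 in control libraries, and the region at 5230861 to 5231347 had 97.5, 87.2 and 91.9 in lead and 93.9, 93.4 and 95.1 in control libraries. Both were high in every list with overlapping groups.

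By density the leader of the 12 was tna, which encodes a SUMO ligase that interacts with Brahma chromatin remodelling, with 5 shared regions in 41.0 kb out of 6 called there in any library. Its region on 3L at 10854150 to 10854471 had percentiles of 95.2, 94.9 and 96.8 in lead and 94.8, 93.2 and 92.9 in control libraries, so that all 6 were high and the 2 ranges nearly met. The region at 10868027 to 10868452 varied far more, at 93.9, 20.4 and 79.5 in lead and 51.8, 80.0 and 64.4 in control libraries. There the lead libraries held both the highest and the lowest value.

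With 5 shared regions each, the same number as Snap25, which came next by density and is described with the synapse genes, were psq, a BTB domain DNA-binding protein gene on 2R (59.4 kb), Hr4, a nuclear receptor gene of ecdysone signalling on X (66.0 kb), and Mur2B, a mucin-related gene on X (145.2 kb). The psq region at 10596730 to 10597523 had percentiles of 87.1, 76.8 and 85.5 in lead and 65.3, 86.2 and 76.3 in control libraries. The Hr4 region at 1991627 to 1992149 had 96.6, 79.5 and 93.3 in lead and 82.5, 74.1 and 84.2 in control libraries. By place among the 890 all its lead libraries stood above its control libraries, as at 5.39% of all shared regions. It did not pass the test of places described below (limma, adjusted p = 0.527). The Mur2B region at 1641484 to 1643123 had 97.1, 90.4 and 91.5 in lead and 95, 95.2 and 93.8 in control libraries. It also lies in br, the Broad ecdysone-response gene, which overlaps Mur2B and shares 3 of its regions.

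On X, mamo, a BTB zinc finger gene of 144.4 kb, had 6 shared regions of 23. The steadiest, at 13873787 to 13874329, had percentiles of 97.3, 93.3 and 96.1 in lead and 94.3, 97.0 and 94.6 in control libraries. Near the middle of the gene 3 shared regions followed each other between 13938162 and 13941165. All 3 had their lead places below their control places among the 890, as did 7.75% of all shared regions, and none passed the test of places described below (limma, adjusted p = 0.524, 0.326 and 0.577). The region at 13847610 to 13848204 had its lead places above (adjusted p = 0.384).

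**Figure D4:**
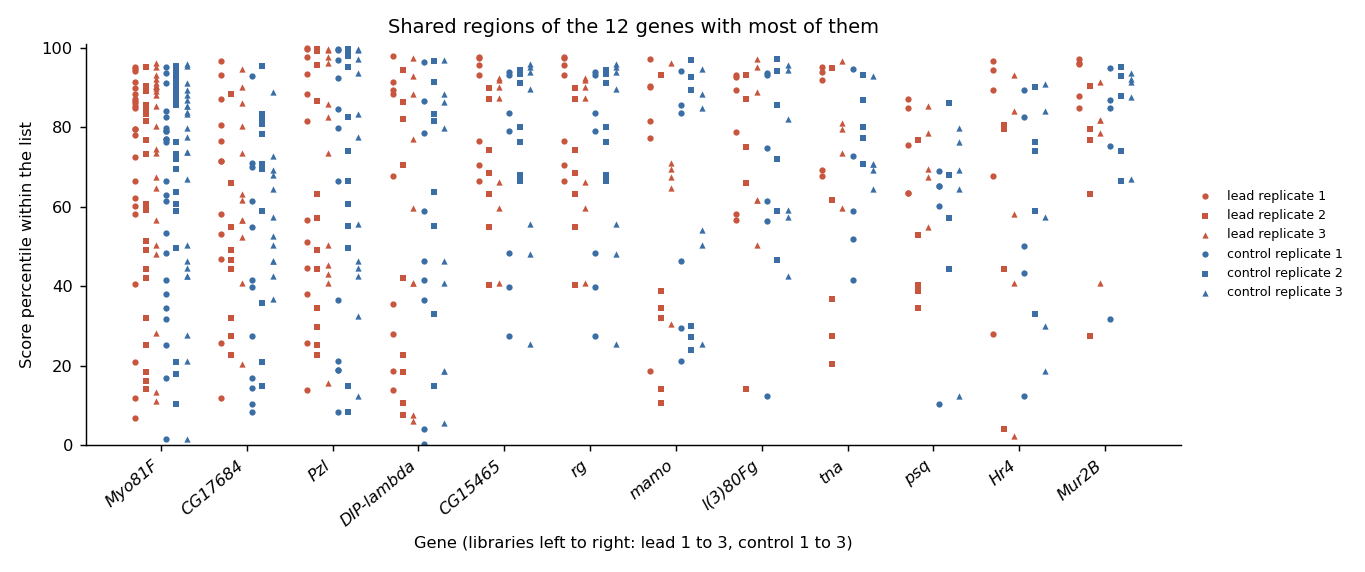
Score percentile within each list of every shared region in or within 1 kb of the 12 genes with the most (Snap25, tied at 5, came next by density and is not drawn), with lead replicates 1 to 3 (red circles, squares, triangles) left of control replicates 1 to 3 (blue) for each gene. Points of a gene spread widely, from 1.49 to 96.3 in Myo81F but only from 25.5 to 97.6 in CG15465 and rg, which repeat the same 7 regions.

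A few short genes also had several, and these were chosen after their values were seen. Sgs1, a larval salivary glue protein gene of 4.01 kb on 2L, had 2 shared regions, the 2 called there in any library. The one at 4937982 to 4939353 had percentiles of 99, 97 and 98.6 in lead and 97.9, 98.8 and 98.5 in control libraries, and was covered over 1367, 1261 and 1356 bp in lead and 1254, 1306 and 1303 bp in control replicates 1, 2 and 3. Sirt6, a sirtuin deacetylase gene of 6.5 kb on 3R, had 3. Its region at 10255492 to 10256584 took places 68, 98 and 63 among the 890 in lead and 41, 41 and 52 in control libraries. All lead places were weaker than all control places, as at 7.75% of all shared regions. This Sirt6 region did not pass the test of places described below (limma, adjusted p = 0.612). CG32694, of 17.2 kb on X, had 4 of 7.

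Over members of any length, RNA-binding protein genes held shared regions most often among 13 lists of genes. Of 43 measured members 20 had one (46.5%), against 3.54% of all genes, and the median number per gene was 0 in every list and over all genes. Among genes of at least 20 kb, 15 of 22 members had a shared region (68.2%), against 270 of all 1045 (25.8%). By length it was 5 of 8 at 20 to 50 kb, 3 of 5 at 50 to 100 kb and 7 of 9 above. Of all genes of those lengths, 19.0%, 33.6% and 59.1% had a shared region. The Y genes described below had a higher share at 20 kb or more. With 3 each led bol, a gene of male meiosis, cpo, which encodes the RNA-binding protein Couch potato of the nervous system, and pum, a translational repressor that is also counted with the learning genes. The cpo region on 3R at 17999960 to 18000358 had percentiles of 96.8, 92.1 and 96.1 in lead and 95.6, 91.3 and 94.8 in control libraries, and was high in all 6. The pum region on 3R at 9201103 to 9201579 was low in all 6, at 40.5, 22.6 and 35.4 in lead and 25.2, 12.6 and 25.5 in control libraries. A second gene of the list with a strong region was ps, the splicing regulator Pasilla, on 3R at 9450657 to 9451182, with 98.3, 88.7 and 96.6 in lead and 96.4, 96.8 and 90.9 in control libraries.

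Ion channel genes had a shared region in 15 of 57 cases (26.3%), against 3.54% of all genes. Among members of at least 20 kb it was 12 of 20 (60%), against 25.8% of all genes of that length. By length it was 3 of 10 at 20 to 50 kb, 7 of 8 at 50 to 100 kb and 2 of 2 above. Of all genes of those lengths, 19.0%, 33.6% and 59.1% had a shared region. The sodium channel gene para and the potassium channel gene Sh, both on X, had 3 each, and Ih and slo had 2 each. The para region at 16522934 to 16523788 had percentiles of 98.7, 97.2 and 98.0 in lead and 97.9, 96.6 and 98.6 in control libraries. Another region of para, at 16476565 to 16476964, had 74.5, 3.95 and 67.5 in lead and 25.2, 72.1 and 70.8 in control libraries. The first was among the strongest peaks of every list, whereas the second was near the bottom of lead replicate 2. The slo region on 3R at 24699292 to 24699961, in the gene of the calcium-activated potassium channel, had 97.3, 96.2 and 97.0 in lead and 94.1, 96.5 and 96.6 in control libraries.

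Genes of learning and memory signalling had a shared region in 12 of 39 cases (30.8%) and synapse genes in 13 of 50 (26.0%), against 3.54% of all genes. At 20 kb or more the counts were 8 of 23 (34.8%) and 11 of 28 (39.3%), against 25.8% of all genes of that length. By length, the learning genes had 3 of 13 at 20 to 50 kb, 0 of 4 at 50 to 100 kb and 5 of 6 above. The synapse genes had 8 of 21, 2 of 6 and 1 of 1. Of all genes of those lengths, 19.0%, 33.6% and 59.1% had a shared region. Lengths were not matched further. The cAMP phosphodiesterase gene dnc had 4, some of them also within lncRNA:CR44886. Its region on X at 3295399 to 3295789 had percentiles of 97.0, 81.1 and 91.5 in lead and 91.0, 93.4 and 94.4 in control libraries. CrebB, the fly CREB transcription factor gene, had 2, of which X 18374480 to 18375228 stood at 91.2, 29.7 and 37.9 in lead and 54.9, 33.0 and 48.2 in control libraries. That height in lead replicate 1 was not met by any other library.

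Among synapse genes, Snap25, a SNARE gene reaching into 3L heterochromatin, had 5 shared regions and dlg1, the scaffold gene Discs large, had 4. The dlg1 region on X at 11382536 to 11383032 had percentiles of 97.5, 92.1 and 95.3 in lead and 91.8, 90.8 and 95.2 in control libraries. One of the 2 regions of cpx, which encodes complexin, was of the same kind, on 3R at 4299580 to 4300063 with 95.2, 90.6 and 96.2 in lead and 95.7, 95.7 and 95 in control libraries. Syt1, the calcium sensor of synaptic vesicles, had 2, and the one on 2L at 2798758 to 2799250 had 92.1, 87.2 and 89.8 in lead and 90.3, 92.6 and 93.6 in control libraries. By place among the 890 all lead libraries stood below the control libraries at this Syt1 region, as at 7.75% of all shared regions. It did not pass the test of places described below (limma, adjusted p = 0.666).

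Neural and homeotic transcription factor genes had a shared region in 19 of 91 cases (20.9%), against 3.54% of all genes. At 20 kb or more it was 18 of 51 (35.3%), against 25.8% of all genes of that length. By length it was 5 of 31 at 20 to 50 kb, 7 of 13 at 50 to 100 kb and 6 of 7 above. Of all genes of those lengths, 19.0%, 33.6% and 59.1% had a shared region, so the class of 20 to 50 kb was not above all genes. After mamo and Hr4 came fru, the sex determination gene Fruitless, with 4 on 3R close to 1 end of the gene. The fru region at 18417332 to 18417781 had percentiles of 96.1, 91.5 and 93.8 in lead and 93.6, 94.3 and 93.3 in control libraries. Its neighbours were weaker, as at 18424115 to 18424709, with 30.5, 44.3 and 54.8 in lead and 27.4, 38.5 and 59.1 in control libraries.

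In several other lists the share was above the 3.54% of all genes but, among genes of at least 20 kb, below the 25.8% of all genes of that length. These were receptors of transmitters and neuropeptides (6 of 86, 6.98%), dpr and DIP genes (2 of 32, 6.25%), axon guidance and cell contact genes (5 of 55, 9.09%), muscle and extracellular matrix genes (4 of 43, 9.3%) and adhesion genes of the beat, side, Dscam and Irre groups (5 of 35, 14.3%). At 20 kb or more the counts were 5 of 33, 2 of 18, 5 of 33, 1 of 14 and 4 of 28. Rdl, a GABA receptor subunit gene, and nAChRalpha6 had 3 each, and wupA, which encodes troponin I, had 2. The wupA region on X at 18110574 to 18111087 had percentiles of 98.5, 94.2 and 98.2 in lead and 96.9, 96.3 and 97.6 in control libraries.

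Of 57 genes of metal handling and redox defence 1, DJ-1alpha, had a shared region (1.75%), near the 3.54% of all genes and the 2.18% of all genes of 2 to 5 kb. It lay on 2R at 13941160 to 13941557, outside the gene but within 1 kb at its edge, with percentiles of 40.5, 25.2 and 58.1 in lead and 36.6, 33.0 and 60.5 in control libraries. The genes of this list have a median length of 2.94 kb, and 3 of them reach 20 kb.

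Genes of DNA methylation, Polycomb and chromatin had a shared region in 4 of 56 cases (7.14%), against 3.54% of all genes, and in 2 of 7 at 20 kb or more (28.6%), against 25.8% of all genes of that length. They were psq, Tet, and esc and Jarid2, which encode components of Polycomb repressive complex 2. Tet, of 93.0 kb on 3L, had 3 of the 10 regions called there in any library. Its region at 2824355 to 2825111 had percentiles of 95.1, 82.2 and 95.1 in lead and 88.1, 94.1 and 87.7 in control libraries. The one at 2828442 to 2829232 had 44.7, 3.95 and 45.4 in lead and 74.7, 12.6 and 32.5 in control libraries. Lead and control values overlapped at all 3 regions of Tet. The Jarid2 region on 3L at 9479775 to 9480184 was high in every list, with 96.8, 95.8 and 94.9 in lead and 94.8, 94.2 and 95.1 in control libraries.

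On Y, 5 of 12 fertility and other Y genes had a shared region (41.7%), against 3.54% of all genes. At 20 kb or more it was 5 of 7 (71.4%), against 25.8% of all genes of that length. By length it was 0 of 1 at 20 to 50 kb, 2 of 2 at 50 to 100 kb and 3 of 4 above. Of all genes of those lengths, 19.0%, 33.6% and 59.1% had a shared region. The 5 genes were kl-3 with 2 and kl-2, kl-5, ORY and Ppr-Y with 1 each. The 13 shared regions of Y had a median percentile of 99.4 over all lists, the highest of any chromosome, followed by 88.2 on chromosome 4 and 70.4 to 77.3 on the major arms. A weaker pair member in kl-3, at 478952 to 479389, had 33.0, 12.4 and 28.2 in lead and 54.9, 85.3 and 52.6 in control libraries. Every lead value there was below every control value, and the places among the 890 were separated in the same way. Such a separation was found at 7.75% of all shared regions, and the kl-3 region did not pass the test of places described below (limma, adjusted p = 0.348).

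Score places within the shared regions were similar between any 2 libraries. Over the 890 regions, Spearman's rho of the places was 0.756 to 0.855 among lead libraries, 0.826 to 0.876 among control libraries and 0.765 to 0.856 between lead and control libraries. For covered width it was 0.706 to 0.779 among lead, 0.724 to 0.787 among control and 0.736 to 0.816 between them. These values describe 15 pairs of lists over the same regions. The percentile of a region differed between its highest and lowest library by a median 28.9 points, by under 10 in 164 regions and by over 50 in 147. Percentiles were taken within complete lists of unequal length. The median of peaks in shared regions was 63.2 in lead replicate 2, with 1379 peaks, and 82.8 in lead replicate 1, with 3522. The range of a region therefore includes this offset between lists, and its part was not tested.

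A region in Cda4, a chitin deacetylase-like gene, stood out between lead and control. It lay on X at 22610925 to 22613097, inside the gene, and took places 31, 31 and 40 among the 890 in lead replicates 1, 2 and 3, against places 522, 632 and 439 in control replicates 1, 2 and 3. The percentiles were 99.0, 97.7 and 98.3 in lead and 61.4, 57.1 and 75.5 in control libraries. No lead library overlapped a control library. For the test, places became normal scores, which run from negative for weak to positive for strong regions. The difference was 2.04 (SE 0.172; limma, Benjamini-Hochberg adjusted p = 0.0339 over 890 regions).

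The shape of the peak differed as well. Each lead library had a single long peak, from 22610925 to 22613076, 22610942 to 22613041 and 22610948 to 22613097 in replicates 1, 2 and 3. Control replicate 2 had separate peaks at 22610948 to 22611360 and 22612755 to 22613042, control replicate 3 at 22610935 to 22611224 and 22612686 to 22613076, and control replicate 1 a single one at 22612833 to 22613065. Peaks thus covered 2152, 2100 and 2150 bp in lead replicates 1, 2 and 3 and 233, 701 and 681 bp in control replicates 1, 2 and 3, a log2 difference of 2.15 (SE 0.437) that did not pass the test for width (limma, adjusted p = 0.814). The control peaks marked the ends of the stretch that the lead peaks spanned.

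The call on Cda4 is fragile. It was lost when any library was left out (limma, adjusted p from 0.07 to 0.304, difference from 1.89 to 2.18). With lists of equal length the difference was 2.51 (adjusted p = 0.0552), with scores summed over peaks 1.26 (adjusted p = 0.59), and per bp of peak it turned to -0.9 (adjusted p = 0.698).

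**Figure D5:**
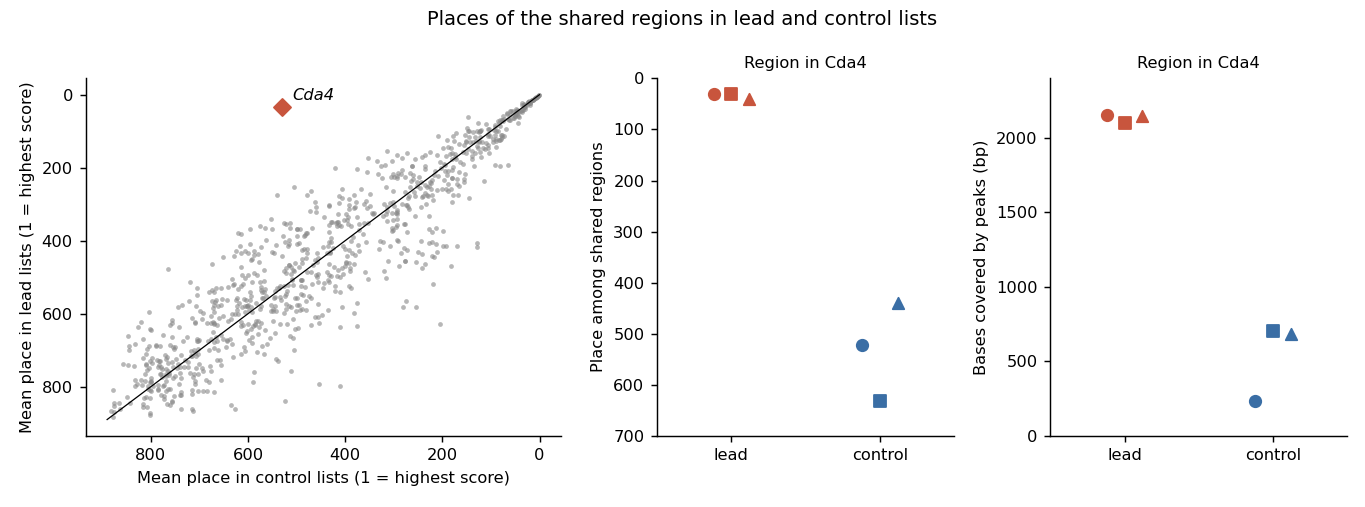
Left, mean place of each of the 890 shared regions in the 3 lead lists (vertical) against the 3 control lists (horizontal), 1 being the highest score, with the line of equality; middle and right, place and covered bases (bp) of the Cda4 region in each lead (red) and control (blue) library, replicates 1 to 3 as circle, square and triangle. The Cda4 region lies at places 31 to 40 in lead and 439 to 632 in control libraries, with 2100 to 2152 bp covered in the lead lists and 233 to 701 bp in the control lists.

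Apart from Cda4, no shared region passed the test of places. In all, 1 of 890 (0.112%) was higher in lead and 0 (0.0%) were lower (limma, adjusted p below 0.05), while 77 (8.65%) had an unadjusted p below 0.05, 31 higher and 46 lower in lead. Every lead library stood above every control library at 48 regions (5.39%) and below at 69 (7.75%). The next regions higher in lead by p were on 2R at 1326003 to 1326382 and on X at 22092711 to 22093152, both with adjusted p = 0.326. The places of the X region were 178, 179 and 185 in lead and 372, 305 and 326 in control libraries.

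On the lower side, a region on 3L at 21809866 to 21810385 in eg, a zinc finger gene of neural fate, took places 825, 863 and 859 in lead and 721, 499 and 686 in control libraries (difference -1.14, limma, adjusted p = 0.326). A region of SPR, the sex peptide receptor gene, on X at 5481150 to 5482792 took places 175, 207 and 202 in lead and 90, 60 and 92 in control libraries (difference -0.57, adjusted p = 0.326). The mamo region at 13938928 to 13940000 took places 473, 689 and 587 in lead and 232, 226 and 303 in control libraries (difference -1.0, limma, adjusted p = 0.326), and per bp of peak its difference was 0.11. The groups did not overlap at these 3 regions, but none passed the test. Others with the same adjusted p were in trv and Mur2B and on 3L at 5123261 to 5123724.

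Chromosome 4 had 5 of its 12 shared regions with all lead libraries below all control libraries (41.7%), against 7.75% of all shared regions, and 0 above. This count was singled out after the values were seen and has no test. Of the 5, 4 lie in the last stretch of the assembled arm, between 1329041 and 1344395. The region at 1330537 to 1331390 took places 753, 274 and 191 in lead replicates 1, 2 and 3 and places 168, 91 and 125 in control replicates 1, 2 and 3. That at 1343544 to 1344395 took places 729, 277 and 245 in lead and 139, 106 and 143 in control libraries. In each of these 4 the weakest place was that of lead replicate 1, which has the longest list, and none passed the test (limma, adjusted p from 0.524 to 0.641). The part of that library in the count was not tested. The fifth lay in pan, which encodes the TCF factor of Wingless signalling, at 81241 to 81808 (places 629, 628 and 487 in lead, 333, 305 and 206 in control libraries).

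The median covered length of a shared region was 399.5, 322 and 387 bp in lead replicates 1, 2 and 3, and 345, 371 and 368 bp in control replicates 1, 2 and 3. Lead libraries averaged 369.5 ± 41.6 bp and control libraries 361.3 ± 14.2 bp (SD, n = 3 each). The difference of 8.17 bp was below the SD of the lead libraries (two-sided exact permutation of the library labels, p = 0.8; smallest possible p 0.1, so no difference could reach 0.05). The value depended on single libraries, being 31.9 bp without lead replicate 2 (exact permutation, p = 0.1, the smallest possible), -6.83 bp without lead replicate 1, -0.583 bp without lead replicate 3 and 0 without control replicate 1. By region, 0 of 890 (0.0%) passed in either direction (limma, adjusted p below 0.05) and 19 (2.13%) had an unadjusted p below 0.05. All lead libraries were wider at 33 regions (3.71%) and narrower at 16 (1.8%). The region of Rdl on 3L at 9177178 to 9178062 was covered over 398, 317 and 348 bp in the lead lists and 765, 885 and 549 bp in the control lists, a log2 difference of -1.03 (limma, adjusted p = 0.814). The groups did not overlap there, and the difference did not pass the test.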

How the data were processed

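MeDIP-seq peak lists of 3 lead and 3 control libraries were analysed, the groups being read from the titles. The tools were cutadapt and Bowtie2 2.1.0 and the build was dm6, per the submitters' processing notes. How peaks were called is not given in the sources used here. The deposited lists give 1 set of peaks per library against its own input, with a width and a whole-number score by the authors whose meaning is not stated. Repeated rows were counted once, and peaks of 1 list did not overlap. Columns other than position, width and score were not used.

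Peaks were merged at an overlap of 1 bp. A region's score in a library was the highest of that library's peaks in it. Scores were ranked among the 890 shared regions, turned into normal scores and compared by limma 3.58.1 (R 4.3.3) with group as the only term, as were log2 covered bases; Benjamini-Hochberg adjustment ran over all 890 at a threshold of 0.05. One value per library was compared by exact permutation, and shared with other peaks of the same library by exact sign flips. The fits were tested on simulated data. Gene positions came from RefSeq (Release 6, 17807 genes), and genes were counted with 1 kb on either side. A planned comparison of promoter windows was not run, since no strand or promoter table was used here. Sequences were not analysed here, and 1 gene is not reported here.

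The named genes and regions were up to 12 genes with most shared regions, the 8 highest and 8 lowest regions by their weakest library, the 5 widest, up to 6 per direction by p for place and 4 for width, up to 4 genes per list, and 4 regions of 5 libraries; others were chosen after their values were seen. The members, gene lists and tests were chosen with earlier results of these data known. Alternatives were a stricter score, lists cut to 1379 peaks, other merging rules, major arms only, summed score, score per bp, leaving out each library, gene bodies without flanks, and a block for the replicate number. Replicate numbers are shared between groups, but deviations of same-numbered libraries did not correlate (0.0164, -0.0921 and -0.0829 for places), so they were not taken as pairs. Other computations ran in Python 3.11.15 (pandas 2.3.3, numpy 2.4.6, scipy 1.17.1), with figures by matplotlib 3.10.9.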

Additional observations from a re-analysis of the deposited data

How the results depend on the processing

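The 890 shared regions became 481 with peaks at or above the median score of their list, 602 with lists of equal length, 889 with an overlap of 100 bp, 890 when peaks within 100 bp were joined, and 903 to 1105 without any 1 library. Genes with at least 2 shared regions numbered 118, and 112 without the 1 kb flanks. The count of 1 region higher in lead by place became 0 with equal numbers of peaks, with summed score, with score per bp and without any 1 library (0 to 0), and 1 remained with major arms or an overlap of 100 bp. With the replicate number as a block it was also 0 (Cda4 2.04 as before, limma, adjusted p = 0.601), and the median width difference stayed at 8.17 bp (exact sign flip, p = 0.75); the block changed no other call. The count lower in lead by place was 0 throughout. By width, the count higher in lead ran from 0 to 1 over the leave-outs, the 1 being Cda4 without control replicate 1 (1.63, limma, adjusted p = 0.0113), and the count lower in lead was 0 in all of them.

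The difference in median width ran from -6.83 (without lead replicate 1) to 31.9 bp (without lead replicate 2; exact permutation, p = 0.1, the smallest possible), with -0.583 without lead replicate 3 and 0 without control replicate 1. The difference in share in genes ran from -0.139 (without control replicate 2) to 1.02 points over the leave-outs, with -0.0116 without lead replicate 3, and was 4.21 with the stricter score (exact sign flip, p = 0.0625). For X it ran from -2.47 to 0.696 (without lead replicate 1), and was -2.2 with the stricter score. For Y it ran from -0.165 (without lead replicate 1) to 0.174, with -0.0177 and -0.0706 without control replicates 1 and 3; it was -0.84 with the stricter score (exact sign flip, p = 0.25) and -0.0488 against other peaks of 2 to 5 libraries. With 5 libraries the smallest sign-flip p is 0.0625, and the width permutation cannot go below 0.1, so these leave-outs could not pass at 0.05. Of 225 values of named regions under alternatives, 223 kept their direction; those that turned, both per bp of peak, were -0.9 in Cda4 and 0.11 in mamo. The causes were not tested. Depth per library is unknown, and lists of different length limit what a shared region can show.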
